A study of Mus musculus with 76 samples.

Results

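HCN and two-pore potassium channels set the resting potential of a neuron, and 7 of their genes were followed here through single interneurons of the newborn mouse hippocampus. The genes, taken as a list of symbols, were 3 HCN genes (Hcn2, Hcn3, Hcn4) and 4 two-pore genes (Kcnk1, Kcnk2, Kcnk3, Kcnk9), out of 35825 gene symbols in the deposited tables. All 7 passed the filter on low counts and are among the 16435 genes tested. Each cell was drawn into a patch pipette from an acute slice of dorsal CA1 at postnatal day 4 and made into a Nextera XT library (Patch-seq). The cells had tdTomato fluorescence from an Ai14 reporter switched on by Nkx2.1-Cre, which marks neurons born in the medial ganglionic eminence (MGE), and lay in the pyramidal cell layer, a position the submitters give as rich in future parvalbumin basket cells. All groups carry this Cre and reporter. The pups had either wild-type gephyrin (GPHN WT, here WT) or gephyrin with serines 268 and 270 replaced by alanine (GPHN S268/270A, here Mut). Gephyrin is the scaffold protein under inhibitory synapses that anchors the receptors for GABA and glycine there. Whether Mut pups carried 1 or 2 mutant alleles is not given in the sources used here, and counts per gene cannot show the changed codons. Of 76 labelled cells, 62 passed the authors' quality filter without a contamination mark: 28 WT cells (9 female, 19 male) and 34 Mut cells (19 female, 15 male). No animal is named in the labels, so cells of 1 pup cannot be recognised, cells were not treated as replicates, and any test used 4 sums of cells, 1 for each genotype and sex.

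HCN channels are opened by hyperpolarization and let sodium and potassium ions through, giving an inward current that pulls the membrane back from negative voltages. Cyclic AMP binds to their intracellular end and eases opening, strongly in HCN2 and HCN4. Two-pore potassium channels have a pair of pore loops in each subunit and work as dimers. They are open over a wide range of voltages, so the potassium current they leak holds the membrane negative. In the hippocampus both kinds of channel are found in pyramidal cells and interneurons, where their balance sets the input resistance and the distance from the resting potential to the firing threshold.

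The selectivity filter is the narrowest stretch of a potassium channel's pore, where ions pass in single file. Its coding sequence is shown for the 4 two-pore genes so that their pores can be compared. Capitals mark the 3 codons of the filter that were matched, with 9 bases on each side, read 5′ to 3′ on the coding strand of the GENCODE M21 transcripts (build GRCm38). The second pore loop is shown.
Kcnk1: agcaccatcGGCCTGGGGgactatgtt
Kcnk2: acgaccattGGATTTGGAgactacgtg
Kcnk3: accaccatcGGCTTCGGCgactatgtg
Kcnk9: actactataGGGTTCGGCgattttgtg
These stretches lie in exon 2 of Kcnk1 (chr8:126025326-126025352, plus strand), exon 5 of Kcnk2 (chr1:189256572-189256598, minus strand), exon 2 of Kcnk3 (chr5:30622199-30622225, plus strand) and exon 2 of Kcnk9 (chr15:72512710-72512736, minus strand). In the annotation, exons of Hcn3 overlap Pklr on the opposite strand, and exons of Kcnk1, Kcnk2 and Kcnk3 overlap the noncoding genes Gm45875, A430027H14Rik and Gm9899 on the opposite strand. The library kit does not mark the strand, so reads from such overlaps cannot be told apart. No gene overlaps Hcn2, Hcn4 or Kcnk9.

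The 62 cells held 2946456 to 12070780 counts each (median 6353179). Of the 9 MGE interneuron markers, all reached 10 CPM, counts scaled to 1000000 per cell, in some cell, and 55 cells had Lhx6 together with Gad1 or Gad2 at that level. Among the other 7 cells, WT male cell 12 had none of the 9 MGE markers at 10 CPM, and the summed CPM of those markers was 31.2 against a median of 1588 over all 62 cells. The sum was also low in Mut female cells 18 and 2, at 34.9 and 46.2 CPM. Cells are numbered within their group in the order of the labels. Markers of other cells were present: the 8 pyramidal neuron markers summed to a median of 316 CPM per cell in WT females, 171 in Mut females, 517 in WT males and 508 in Mut males, with single cells from 3.37 to 3514. Microglial markers had medians of 10.2 to 47.5 CPM by group and reached 7493 in 1 Mut female cell, and astrocyte markers reached 5679 CPM in 1 Mut female cell. Erythroid markers had a median of 383 CPM over the 62 cells and reached 26886 in 1 Mut female cell. Of the CGE interneuron markers Htr3a had no count in 3 of the 4 groups. Nr2f2 was at 10 CPM or more in 9 cells, Prox1 and Adarb2 in 7 each and Vip in 1. The CGE sum reached 631 CPM in 1 Mut male cell. Of the Cajal-Retzius markers Trp73 had no count in 3 groups, and Reln alone reached 10 CPM, in 22 cells. The part of these RNAs in the values below was not tested, apart from the values given for the 55 cells.

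Levels of different genes compare only per length, for which the deposited length-scaled values (TPM) were used. Kcnk1, which encodes TWIK-1, a weakly conducting channel, had the highest mean at 50.4 ± 99.9 TPM (SD over 62 cells). Hcn3 followed at 19.2 ± 49.6 and Kcnk2, which encodes the mechanically and lipid-gated TREK-1, at 15.2 ± 21.95. Below these came Kcnk3 (the acid-sensitive TASK-1) at 4.69 ± 13.8 TPM and Hcn2 at 3.69 ± 12.7 TPM. Hcn4 and Kcnk9 (TASK-3, also acid-sensitive) were lowest, at 0.611 ± 3.04 and 0.588 ± 1.51 TPM. The SD was larger than the mean for each of the 7 genes, and whether neighbours in this order differ within cells was not tested. The median cell gave another order: Kcnk2 came first at 5.46 TPM, ahead of Kcnk1 at 1.24, Hcn3 at 0.268, Kcnk3 at 0.221, Hcn2 at 0.0945 and Kcnk9 at 0.0242, with Hcn4 at 0. Kcnk1 had the highest mean in each of the 4 groups, from 32.4 TPM in Mut males to 69.9 in WT females. In WT females this rested on cell 8: without it Kcnk1 had 25.7 TPM and Hcn3 36.3, against 69.9 and 64.0 with it. The same count is worth less TPM in a long transcript: the median ratio of CPM to TPM in cells with 20 or more counts was 9.77 for Kcnk9 and 4.88 for Hcn4 but 1.49 for Kcnk1 and 1.59 for Kcnk2.

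**Figure D1:**
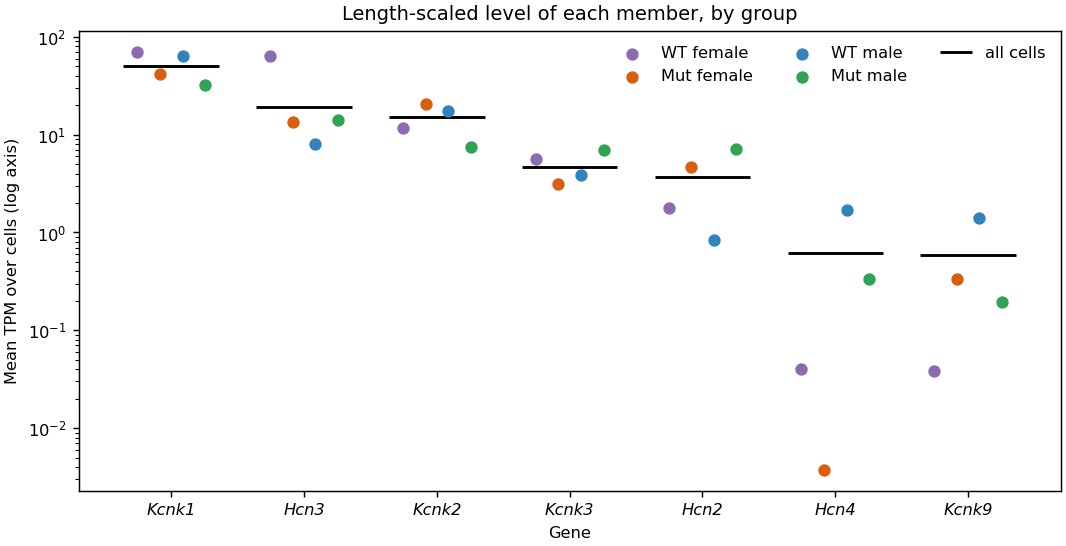
Mean TPM over the cells of each group (points, log axis) and over all 62 cells (black line) for each gene, in falling order. The groups of Kcnk1 sit between 32.4 and 69.9 TPM, while those of Hcn4 range from under 0.01 in Mut females to 1.70 in WT males.

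A cell is said below to carry a gene when it holds 10 CPM or more of it. Each of the 7 genes was carried by 3 to 28 cells, and most of the rest held under 1 CPM. Over all genes tested the median was 10 carrying cells. Kcnk2 was carried by 28 of 62 cells, Kcnk1 by 25, Hcn3 by 15, Hcn2 by 10, Kcnk9 by 8, Kcnk3 by 6 and Hcn4 by 3. Only Kcnk1 and Kcnk2 reached 25 cells, as did 25.2% of the genes tested.

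Among the HCN genes, Hcn2, a subunit common in forebrain neurons, was carried by 8 of 34 Mut cells and 2 of 28 WT cells. In WT females its CPM ran from 0 to 26.4 (median 0.105) and in Mut females from 0 to 61.7 (median 2.62). In WT males it ran from 0 to 26.5 and in Mut males from 0 to 213, both with a median of 0. The groups overlapped, but carriers numbered 1 of 9 WT females and 1 of 19 WT males against 6 of 19 Mut females and 2 of 15 Mut males. Exact 95% Clopper-Pearson intervals were 0.281% to 48.2% in WT females, 12.6% to 56.6% in Mut females, 0.133% to 26.0% in WT males and 1.66% to 40.5% in Mut males. They cover counting error only and are no comparison of the groups, since cells of 1 pup are not independent. With every cell thinned to the depth of the shallowest, 2946456 counts, 3 WT and 8 Mut cells carried it, against 2 and 8 before thinning.

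Hcn3, whose subunit responds little to cyclic AMP, had its highest values in WT females. There it ran from 0.316 to 862 CPM (median 1.82), with 4 carriers at 862, 613, 140 and 104 CPM. In Mut females it ran from 0 to 131 (median 0.359), with carriers at 131, 127 and 84.3 CPM. In WT males it ran from 0 to 258 (median 0.749) and in Mut males from 0 to 177 (median 0.746), with 4 carriers each. The carriers in Mut males lay between 105 and 177 CPM, and those in WT males between 32.6 and 258. The groups overlapped, and all of them had a median under 2 CPM beside single cells above 100 CPM.

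Hcn4, the slow subunit of heart pacemaker cells and thalamic neurons, was seldom detected. It had no count in 47 of 62 cells, and the carriers were WT male cells 7 and 4 (95.5 and 43.8 CPM) and Mut male cell 8 (28.6 CPM). No female cell carried it: the highest was 1.73 CPM in WT female cell 5, and Mut females did not exceed 0.166 CPM. For 0 of 9 WT female cells the exact interval allows a share of up to 33.6%, and for 0 of 19 Mut female cells up to 17.6%, with cells counted as independent, which is not known.

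Among the two-pore genes, Kcnk1 split cells into those with high values and those with almost none. In WT females it ran from 0 to 666 CPM (median 14.3) and in Mut females from 0 to 470 (median 1.57). In WT males it ran from 0 to 521 (median 2.89) and in Mut males from 0.171 to 313 (median 1.44). All groups overlapped, with carriers in 5 of 9 WT females, 6 of 19 Mut females, 8 of 19 WT males and 6 of 15 Mut males. The highest 3 WT males held 521, 469 and 328 CPM. The second of these was WT male cell 12, the cell with no MGE marker at 10 CPM. Mut female cell 2, with an MGE sum of 46.2 CPM, held 166 CPM.

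Kcnk2 was the most evenly spread of the 7. It ran from 0.206 to 82.8 CPM in WT females (median 0.668) and from 0 to 200 in Mut females (median 9.04). In males the order of the medians was the other way round, with 0.520 to 88.7 CPM in WT (median 18.2) and 0.214 to 48.0 in Mut (median 5.57). Carriers were 3 of 9 WT females, 9 of 19 Mut females, 11 of 19 WT males and 5 of 15 Mut males.

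Kcnk3 and Kcnk9 encode subunits that can join in 1 channel. No cell carried both, and with 6 and 8 carriers among the 62 the product of the shares gives 0.774 cells. Kcnk3 was carried by 2 WT females (79.9 and 63.7 CPM), 1 Mut female (129), 1 WT male (175) and 2 Mut males (161 and 105), with group medians between 0.273 and 1.61 CPM. Kcnk9 was carried by 5 of 19 WT males (70.3, 63.7, 62.6, 29.5 and 29.4 CPM). Elsewhere it was carried by 2 Mut females (35.0 and 25.4) and 1 Mut male (15.3), and no WT female exceeded 1.79 CPM. The 35.0 CPM lay in Mut female cell 5, which had 7 of 9 MGE and 6 of 7 astrocyte markers at 10 CPM. The 25.4 CPM lay in Mut female cell 18, with an MGE sum of 34.9 CPM. That cell had the highest astrocyte (5679 CPM) and erythroid (26886 CPM) sums of the 62 cells. Of the WT male carriers, cell 1 (29.5 CPM) had the highest pericyte sum (456 CPM) of the 62.

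**Figure D2:**
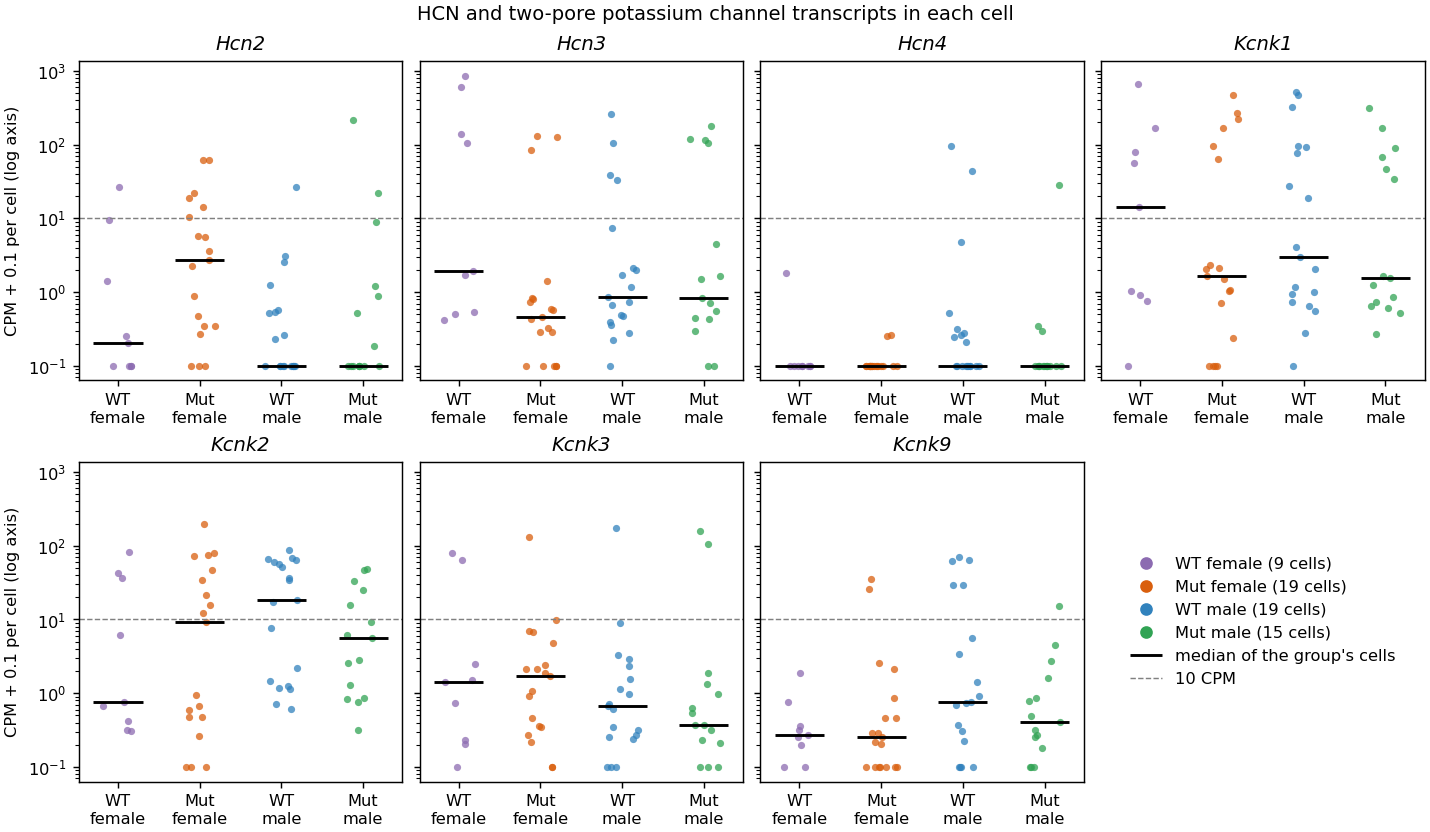
CPM + 0.1 of each gene in each of the 62 cells (points, log axis) by group, with the group median (black line) and the limit of 10 CPM (dashed). Kcnk1 and Hcn3 have cells above 100 CPM in every group, and Hcn4 lies at 0 in 47 cells.

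Because of this, a sum over a group often rested on 1 cell. In 15 of the 28 sums (7 genes in 4 groups) the highest cell held over 50% of the counts. The share of the highest cell had a median over the 7 genes of 54.9% in WT females, 44.1% in Mut females, 56.0% in WT males and 47.2% in Mut males. Over genes tested at 1 CPM or more the medians were 58.5%, 40.0%, 39.3% and 43.2% in the same order, so a share of this size was common in these data. Kcnk2 was least concentrated, with 19.2% to 21.9% in 3 groups and 53.3% in WT females. Mut male cell 16 held 81.9% of the Hcn2 counts of its group, and WT female cell 8 held 74.3% of the Kcnk1 and 48.4% of the Hcn3 counts of its group.

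**Figure D3:**
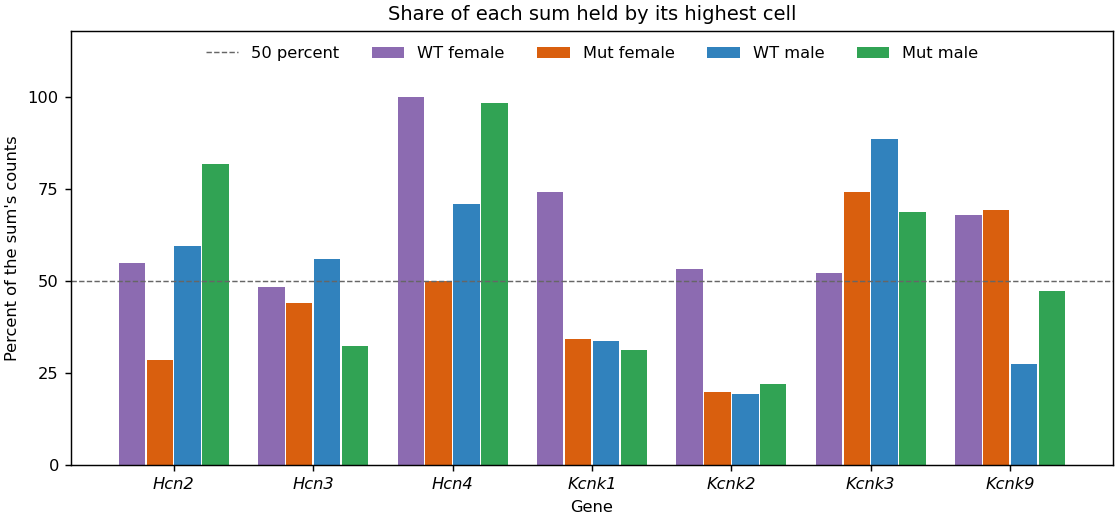
Percent of each gene's summed counts that came from the highest cell of the group (bars, from 0), with a dashed line at 50%. The bar passes 50% in 15 of 28 sums, and for Kcnk2 it stays near 20% outside WT females.

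The main question of the series is what the gephyrin mutation changes. In edgeR's quasi-likelihood test of genotype over the 4 sums, no gene had a p under 0.05 after Benjamini-Hochberg adjustment (0% of 16435 genes), and 0 of the 7 channel genes did. At an unadjusted p under 0.05 there were 0 of the 7 against 3.5% of the genes tested. DESeq2 on the same sums called 367 genes higher and 299 lower in Mut, with none of the 7 among them. Its unadjusted p was under 0.05 for 1 of the 7, Hcn2 (DESeq2 p = 0.0239, adjusted p = 0.229). The share of all genes at that DESeq2 limit was not counted, and the 3.5% is edgeR's, so Hcn2 cannot be said to stand out. Within a sex there is 1 sum per genotype and no test, and the log2 ratio of summed CPM (Mut over WT, with 1 CPM added) is given. It had the same sign in both sexes for 3 of 7 genes (Hcn2 higher, Hcn4 and Kcnk1 lower in Mut), as for 50.2% of the genes tested. It was past 2-fold for 5 of 7 in females, where 41.4% of all genes were, and for 5 of 7 in males, where 34.1% were. Leaving out 1 cell turned the sign for 2 of 7 in females (41% of all genes) and for 1 of 7 in males (40.5%).

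Summed Hcn2 was 4.38 CPM in WT females (exact Poisson interval 3.84 to 4.98, counting error only) and 10.7 in Mut females (10.1 to 11.3). It was 1.20 CPM in WT males and 17.7 in Mut males. Mut was the higher sum in both sexes, with log2 ratios of 1.12 and 3.08. Without Mut male cell 16 the ratio in males was 1.02. That cell had 6 of 9 MGE markers at 10 CPM, and its astrocyte markers summed to 877 CPM against a median of 9.12 in the other Mut males. Over both sexes the log2 difference was 2.58 (SE 1.79, 95% interval -2.13 to 7.29, edgeR p = 0.213, adjusted p = 1), and 1.41 without that cell.

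Summed Hcn3 was 288 CPM in WT females against 23 in Mut females, and 16.2 in WT males against 37.9 in Mut males. The sexes went opposite ways, with log2 ratios of -3.59 and 1.18. Leaving out each cell in turn left -4.26 to -2.81 in females and 0.78 to 2.19 in males. The highest of these in males was without WT male cell 12, which held 56.0% of the WT male counts, and in the 55 cells with Lhx6 and Gad1 or Gad2 the ratio was 2.02 in males and -3.55 in females. WT female cells 8 and 9 held 7412 and 5814 of the 15325 WT female counts, and leaving out both together was not tried. WT female cell 9 had 3 of 9 MGE markers at 10 CPM. Its CGE markers summed to 289 CPM, against a median of 0.551 in the other WT females. The fit over both sexes gave -1.21 (SE 1.64, edgeR p = 0.496).

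Summed Hcn4 was 8.22 CPM in WT males and 1.66 in Mut males, a log2 ratio of -1.79 that was -0.43 without WT male cell 7. In females the sums rested on 8 counts in WT and 2 in Mut, and the log2 ratio was -0.18, or -1.11 with 0.1 CPM added in place of 1. With nothing added the linear ratio of these counts was 0.109, with an exact counting interval of 0.0113 to 0.545. That interval takes each read as independent, but all 8 WT counts came from 1 cell and may be copies of fewer molecules. The fit gave -2.67 (SE 1.83, edgeR p = 0.210), and it was -5.73 without Mut male cell 8 and -0.71 without WT female cell 5.

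Summed Kcnk1 was 145 CPM in WT females against 68.3 in Mut females, and 79.5 in WT males against 42.5 in Mut males. Both sexes had less in Mut, by log2 ratios of -1.08 and -0.89, and its fit had the smallest error of the 7 genes at -0.99 (SE 0.55, 95% interval -2.44 to 0.45, edgeR p = 0.135, adjusted p = 1). The value in females rested on WT female cell 8: without it the ratio was 0.70 in females and the fit gave -0.10. That cell had the highest sum of pyramidal neuron markers among WT females (1470 CPM against a median of 267 in the others). Its sum of MGE markers was the second highest (2367 CPM), but 4 of the 9 were at 10 CPM, against a median of 7 in WT females. In males no cell turned the sign, with a range of -1.30 to -0.41.

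Summed Kcnk2 was 18.5 CPM in WT females against 24.3 in Mut females, and 28.1 in WT males against 13.7 in Mut males. Its ratios of 0.37 and -0.99 kept their signs whichever cell was left out (0.12 to 1.18 in females and -1.22 to -0.80 in males), and the fit over both sexes gave -0.33 (SE 1.12, edgeR p = 0.784). Summed Kcnk3 was 17.2 CPM in WT females and 7.64 in Mut females, and 10.5 in WT males and 23.9 in Mut males, with ratios of -1.07 and 1.11. The ratio in females was -2.57 without Mut female cell 20 and -0.32 without WT female cell 2. Mut female cell 20 held 74.3% of the Mut female counts. It had 6 of 9 MGE markers and 9 of 11 microglial markers at 10 CPM (7493 CPM in sum for the microglial). Its Cajal-Retzius sum was the highest of its group (1381 CPM), but only 1 of the 3 markers, Reln, was at 10 CPM. The ratio in males was -0.30 without Mut male cell 12 and 3.46 without WT male cell 5, and the fit gave 0.01 (SE 1.43, edgeR p = 0.996). Mut male cell 12 also had the highest sum of CGE interneuron markers in its group (631 CPM against a median of 2.99 in the others).

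Summed Kcnk9 was 0.470 CPM in WT females and 2.95 in Mut females, but 13.97 in WT males and 1.37 in Mut males. The ratios were 1.43 in females and -2.66 in males, where 5 WT cells carried it and the range without each cell was -3.06 to -2.32. In females the ratio was 0.44 without Mut female cell 5, which held 69.2% of the Mut female counts. The fit over both sexes gave -0.36 with the largest error of the 7 genes (SE 3.33, edgeR p = 0.918). Whether the genotype ratio differs between the sexes was not tested for any gene, since each sex has 1 sum per genotype.

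**Figure D4:**
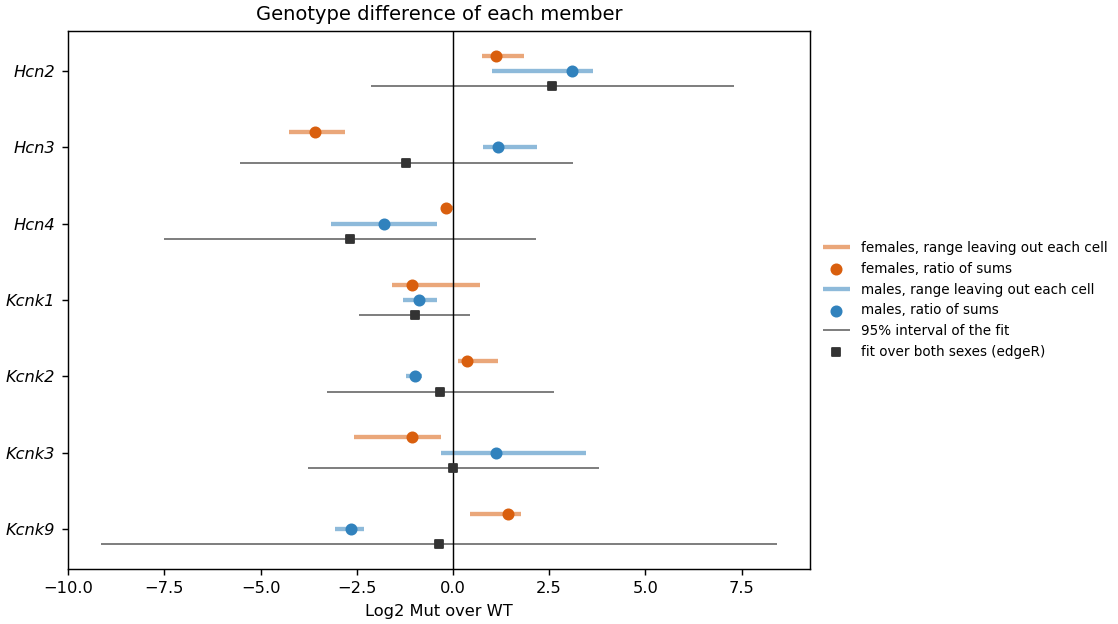
Log2 ratio of summed CPM, Mut over WT, in females and males (circles) with the range over leaving out each cell in turn (thick bars), and the edgeR estimate over both sexes (squares) with its 95% interval (thin lines). All 7 intervals include 0, and the circles of Hcn3, Kcnk2, Kcnk3 and Kcnk9 lie on opposite sides of 0 in the 2 sexes.

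The series also compares the sexes. No gene passed at an adjusted p under 0.05 (0% of 16435 genes in edgeR), while 3.88% had an unadjusted p under 0.05. Hcn4 was the 1 channel gene of 7 among them, at a log2 difference of 6.14, male over female (SE 2.14, 95% interval 0.51 to 11.8, edgeR p = 0.0382, adjusted p = 1). This rests on the 3 male carriers and on 10 female counts in all, and the value was 3.46 (edgeR p = 0.269) without Mut male cell 8 and 8.39 without WT female cell 5. With every cell thinned to the same depth the edgeR p was 0.0535. DESeq2 gave Hcn4 an adjusted p of 0.00402 at 6.16. The other 6 genes had differences between -1.72 (Hcn3) and 1.88 (Kcnk9), with edgeR p of 0.220 or more.

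Single cells usually carried few of these genes. None of the 7 was carried by 12 cells, 1 by 22, 2 by 14, 3 by 11 and 4 by 3 cells. A two-pore gene was carried by 46 cells and an HCN gene of the list by 23, and 19 of these 23 also carried a two-pore gene. Among the 28 WT cells, 0, 1, 2 and 3 genes were carried by 6, 5, 9 and 8 cells, and among the 34 Mut cells 0 to 4 genes were carried by 6, 17, 5, 3 and 3 cells. The 3 cells with 4 genes, Mut female cells 14 and 21 and Mut male cell 6, held the same set of Hcn2, Hcn3, Kcnk1 and Kcnk2.

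The commonest pair was Kcnk1 with Kcnk2, in 12 cells (48% of Kcnk1 and 42.9% of Kcnk2 carriers), where the product of the shares gives 11.3. Hcn2 was found with Kcnk2 in 7 cells (70% and 25%, product 4.52) and with Hcn3 in 5 (50% and 33.3%, product 2.42). All 3 Hcn4 carriers carried Kcnk2, and none carried Hcn2 or Hcn3 (the products give 1.35, 0.484 and 0.726 cells). Lhx6 was carried by all 10 Hcn2, all 28 Kcnk2 and all 6 Kcnk3 carriers, and by 57 of all 62 cells. Sst, the somatostatin gene, was carried by 21 of 62 cells, by 5 of 10 Hcn2 carriers and by 7 of 28 Kcnk2 carriers. Neurod6, a pyramidal neuron gene, was carried by 31 of 62 cells, by 16 of 25 Kcnk1 carriers and by 4 of 10 Hcn2 carriers. No test was made on such counts of cells.

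**Figure D5:**
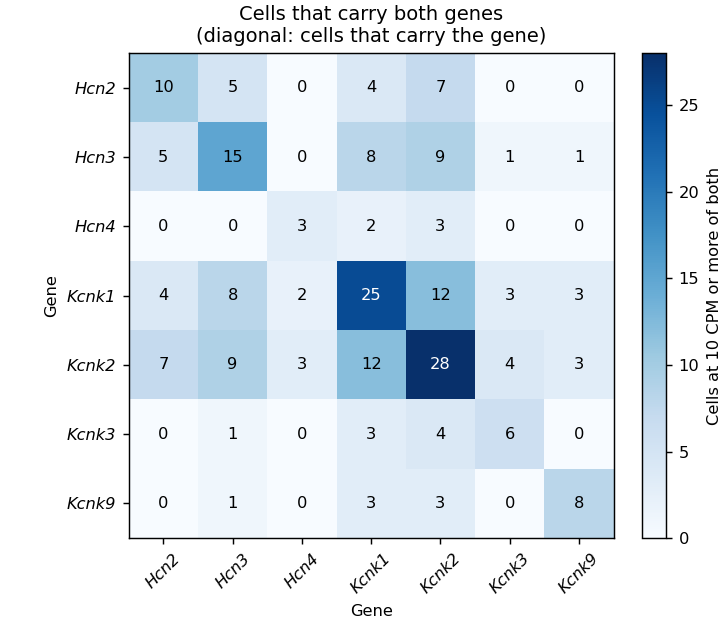
Number of cells, out of 62, that carry both genes of a pair at 10 CPM or more, with the cells that carry each gene on the diagonal. Kcnk1 with Kcnk2 shares 12 cells, and the Hcn4 row is 0 except for Kcnk1 (2 cells) and Kcnk2 (3 cells).

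For the 3 genes carried by 15 or more cells, the genes with the most similar pattern were sought among 6153 genes, by Pearson's r of log2(CPM + 1) over the 62 cells. These values are descriptions with no p, since depth differs between cells and it is not known which cells share an animal. They are also the highest of 6153 for each gene, and how high such values lie without any relation was not tested. Hcn3 was closest to Dnal4 (r = 0.51), Tomm40 (0.45) and Copg1 (0.45). Kcnk1 was closest to Tob1 (0.58), Dazap1 (0.53) and Nprl2 (0.52), and Kcnk2 to Adgrb3 (0.54), Man1a2 (0.53) and Trappc2l (0.52). With the group means taken out, r for the first of each was 0.49, 0.62 and 0.54.

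Of other two-pore genes, Kcnk10 (TREK-2) was carried by 10 cells, with ratios of -0.06 in females and 0.90 in males. Kcnk12 and Kcnk13, which encode THIK channels, were carried by 6 and 1 cells.

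Genes that act on these channels were listed in 4 groups, and none passed at an adjusted p in edgeR. Over all 16435 genes tested, 4133 had more in Mut in both sexes, 4116 had less and 8186 differed in sign. Among 5 tested HCN partners, 2 had more in Mut in both sexes, 1 had less and 2 differed in sign. The filamin gene Flna, whose product cross-links actin, was carried by 39 cells with ratios of 0.84 and 0.37 in females and males, and Nedd4l, a ubiquitin ligase, by 32 cells with 0.18 and -0.66. Pex5l, which encodes the HCN trafficking subunit TRIP8b, was carried by only 7 cells, and the arrestin gene Arrb2 by 16. Among 13 cyclic AMP genes, 3 had more in Mut in both sexes, 3 had less and 7 differed in sign. Values in females and males were, for the 4 with the highest CPM (not corrected for length), Adcy1 (0.01 and -0.56), Adcy2 (-0.01 and 0.75), Pde2a (-1.17 and 0.40) and Pde10a (1.52 and 0.50). Adcy1, which encodes a calcium-activated adenylyl cyclase, was at 187 to 275 CPM in the 4 sums.

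Of 16 regulators of two-pore channels, 4 had more in Mut in both sexes, 5 had less and 7 differed in sign. The 14-3-3 genes Ywhaz and Ywhab, whose products help TASK channels reach the surface, were carried by all 62 cells, with ratios of -0.07 and 0.27 for Ywhaz and of -0.35 and 0.16 for Ywhab. Ywhag (-0.52 and -0.24) and Gna11 (-0.09 and -0.28), a G protein that closes TASK and TREK channels, were carried by 59 and 55 cells. Other resting conductances had 6 of 13 tested genes with more in Mut in both sexes, 3 with less and 4 that differed in sign. These included the M-current gene Kcnq3 (0.13 and 1.19) and the sodium leak genes Nalcn (3.05 and 0.16) and Unc79 (-1.32 and 1.36). The median genotype difference from the fit was -0.36 over the 7 channel genes, 0.28 for HCN partners and -0.37 for cyclic AMP genes. It was 0.13 for two-pore regulators and 0.76 for other resting conductances, against -0.000417 over all genes tested. The 0.76 is the value of Kcnj6 (SE 1.42), which was carried by 0 cells and lay at 0.207 to 0.473 CPM in the 4 sums. Kcnj6 and Kcnj2, also with 0 carriers, are among the 6 resting conductance genes with more in Mut in both sexes. Whether a list differs from all genes was not tested.

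A further 5 kept WT cells (1 female, 4 male) bear a contamination mark, and all 11 microglial markers were at 10 CPM or more in the female cell and among the male cells. Kcnk2 was carried by 4 of the 5 (134 CPM in the female cell and 0.395 to 44.2 in the males), Kcnk9 by 3 (40.1 CPM in the female and up to 18.6 in the males) and Kcnk1 and Hcn3 by 2 each. Hcn2, Hcn4 and Kcnk3 were carried by none. With these cells added, the genotype ratio in females was -0.65 for Kcnk2 and -1.09 for Kcnk9, both of the other sign than without them.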

How the data were processed

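Single cells were profiled by Patch-seq. Per the submitters' processing notes reads were quantified with kallisto on GRCm38; versions are not given in the sources used here. The deposited count tables, before and after the authors' quality filter, hold estimated counts per gene symbol, made by the authors with kallisto, and another deposited table holds TPM, scaled for length and depth by the authors. How the filter and the contamination mark were set is not given in the sources used here. A further 52 columns of the unfiltered and 44 of the filtered table belong to other samples and were left out.

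Estimated counts of the 62 kept, unmarked cells were summed by genotype and sex and rounded (61543135 counts in WT females, 120682125 in WT males, 117701842 in Mut females, 112199121 in Mut males). Genotype and sex were fitted together with edgeR 4.0.16 (quasi-likelihood F-test, TMM scaling, filterByExpr with a minimum count of 10, 1 residual degree of freedom, Benjamini-Hochberg adjustment over 16435 genes). The biological coefficient of variation was 0.958. Ratios within a sex use TMM-scaled CPM with a pseudocount of 1 CPM; per-cell CPM uses each cell's total. Poisson and Clopper-Pearson intervals are at 95%. The labels name no molecular identifiers, so reads copied from 1 molecule cannot be told apart. The intervals cover counting error only, and the Poisson intervals take each read as independent, so they can be too narrow. The p-values measure only the spread between 4 sums, which edgeR moderates over genes with 3.6 prior degrees of freedom.

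Positions and coding sequences come from GENCODE M21. Named genes were all members, up to 4 genes per list with the highest mean CPM, further family members carried by 10 or more cells, and the 3 genes most like each member carried by 15 or more. A few genes and sequences that these rules take are left out here. The members and lists were chosen with earlier results of these data known. Alternatives were DESeq2 1.42.0, other scalings, no filter, no covariate, other cell sets, thinning, other limits, leaving out each cell and, for ratios within a sex, a pseudocount of 0.1 CPM and means of CPM or TPM over cells.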

Additional observations from a re-analysis of the deposited data

Results flagged for a closer look

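In 14 groups of 4 to 10 cells the gap of the highest or lowest cell was compared with the group's range (Dixon's criterion), and 6 stood apart. The criterion flags about 1 in 20 groups (5%) of normally distributed values, which these are not, and the 7 genes share cells, so the number of flags cannot be read against it. The group of 9 WT females gave 4 of these: Hcn2 in cell 3 (26.4 CPM, next 9.36), Hcn4 in cell 5 (1.73 CPM, next 0), Kcnk1 in cell 8 (666 CPM, next 170) and Kcnk9 in cell 9 (1.79 CPM, next 0.650). The 4 marked WT males gave the other 2: Kcnk1 in cell 3 (25.3 CPM, next 1.15) and Kcnk3 in cell 2 (3.98 CPM, next 0.415).

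The genotype ratio had opposite signs in the sexes, whichever cell was left out, for Hcn3 (-3.59 in females, 1.18 in males), Kcnk2 (0.37 and -0.99) and Kcnk9 (1.43 and -2.66). Over all genes tested, 8186 of 16435 had opposite signs in the sexes, and how many kept them whichever cell was left out was not counted. With the marked WT cells added, the ratio in females turned negative for Kcnk2 and Kcnk9, as given above. Whether the ratios differ was not tested.

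The 9 cells that the authors' filter dropped held 3 values above the highest kept cell of their group. Kcnk1 reached 2707 CPM (2951 counts) in Mut male cell 9, against 313 CPM in the highest kept Mut male, at a depth of 1090295 counts. Kcnk9 reached 166 CPM (438 counts) in WT male cell 2, against 70.3 CPM, at a depth of 2633230 counts. Hcn4 was at 3.33 CPM in Mut female cell 4, against 0.166 CPM, but on 3 counts at a depth of 899625.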

How the results depend on the processing

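Under median-of-ratios scaling, library totals, no filter, no covariate, dropped or marked cells added, the 55 cells with Lhx6 and Gad1 or Gad2, thinning and leaving out each cell, edgeR called 0 genes for genotype and 0 for sex. DESeq2 called 367 higher and 299 lower for genotype and 448 and 263 for sex, and took Hcn4 past the threshold for sex (6.16); the cause was not tested. For genotype over both sexes the sign turned for Kcnk3, whose value was near 0, with dropped cells (-0.0848), in the 55 cells (-0.0170) and with thinning (-0.12). Leaving out each cell gave -0.93 to 1.54 for Kcnk3, -0.46 to 0.11 for Kcnk2 and -1.15 to 0.32 for Kcnk9. For sex the sign turned for Hcn2 with no covariate (0.32), Kcnk2 with library totals (0.0398) and Kcnk9 with marked cells (-0.17), and leaving out each cell gave -1.01 to 0.12 for Kcnk1, -0.24 to 0.32 for Kcnk2 and -1.05 to 1.41 for Kcnk3. None of these was past the threshold. For ratios within a sex, a pseudocount of 0.1 CPM or means of CPM or TPM over cells turned no sign; the ratio ranged from 0.36 to 2.42 for Kcnk9 in females, from -3.25 to -1.01 for Kcnk9 in males and from 2.15 to 3.77 for Hcn2 in males. At 1 CPM in place of 10 the number of WT and Mut carriers of Hcn2 was 7 and 15, and of Kcnk3 12 and 14; at 50 CPM they were 0 and 3, and 3 and 3. No paired analysis was possible because the labels give no replicate, animal or batch number.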
